A study of Mus musculus with 6 samples.

Results

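The 36 genes described here encode chaperones, co-chaperones and folding enzymes of the endoplasmic reticulum (ER). They were listed by function, but the list was chosen with fold changes from these same libraries in view, so the difference of its members between the groups is given as a description. All 36 were present among the 24421 gene symbols of the count tables, and all 36 belonged to the 12766 genes with enough counts to be tested. The libraries came from 3T3-L1 cells, a mouse cell line of preadipocytes, which had been differentiated into adipocytes with insulin, a thiazolidinedione, dexamethasone and IBMX, and whose strain the labels give as C57BL/6. The paper names C57BL/6J only for its mice and gives no strain for the cell line. On day 7 of differentiation the cells received 100 pfu/cell of an adenovirus that carried either *LacZ*, a bacterial reporter gene serving as the control (AdLacZ), or a codon-optimized murine *Lmo3*, which encodes the transcriptional cofactor LIM domain only 3 (Ad*Lmo3*). RNA was taken 72 h later from 3 replicates with each virus, which are read here as separate infections. The 6 libraries are thus taken as replicate cultures of a single cell line. Both groups carried an adenovirus, and uninfected cells are not part of the comparison. *Lmo3* itself had a count of 0 in each of the 6 libraries, where 3 counts would correspond to 0.0768 to 0.111 CPM, counts scaled to the library total. The viral *Lmo3* is codon-optimized, and whether its reads could be counted for this gene was not tested. The labels and the expression of the viral gene therefore could not be checked through these counts.

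Proteins that enter the secretory pathway fold in the ER lumen, where HSP70- and HSP90-type chaperones bind exposed hydrophobic stretches, disulfide isomerases form and reshuffle disulfide bonds, and the lectins calnexin and calreticulin retain glycoproteins until they are folded. When unfolded proteins accumulate, the sensors IRE1, PERK and ATF6 start the unfolded protein response (UPR), and the transcription factors ATF6 and XBP1 then bind ER stress response elements (ERSE) in the promoters of many ER chaperone genes. Adipocytes are secretory cells, and adiponectin is a disulfide-linked multimer assembled in this compartment.

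The ERSE consists of CCAAT and CCACG with 9 bases between them. In the 300 bases from 250 before to 50 after each RefSeq transcription start (GRCm38.p6), it was found on either strand in 8 of the 32 members with a promoter in the table, or 25.0%, against 37 of all 27025 genes, or 0.137%. *Dnajb11* held the related ERSE-II (ATTGG and CCACG with a single base between them), which occurred in 0.0444% of all genes. The elements are printed below with 5 bases on each side, 5′ to 3′ on the strand of the gene, with the letters of the element in capitals. They are shown because 7 of these 8 genes, and *Dnajb11*, are among the members that passed the threshold for lower mRNA in Ad*Lmo3* libraries, defined below. The mRNA of *Ero1lb* was lower too (-0.28) but did not pass it.
*Hspa5* (chr2:34772020-34772048, + strand): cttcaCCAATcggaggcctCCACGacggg
*Hsp90b1*, upstream copy (chr10:86705633-86705661, - strand): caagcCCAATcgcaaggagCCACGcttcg
*Hsp90b1*, downstream copy (chr10:86705528-86705556, - strand): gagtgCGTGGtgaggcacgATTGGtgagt
*Calr* (chr8:84847070-84847098, - strand): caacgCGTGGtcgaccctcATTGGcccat
*Canx* (chr11:50325795-50325823, - strand): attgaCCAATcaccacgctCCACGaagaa
*Pdia6* (chr12:17266486-17266514, + strand): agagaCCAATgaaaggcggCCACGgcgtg
*Dnajc3* (chr14:118937822-118937850, + strand): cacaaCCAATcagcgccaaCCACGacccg
*Creld2* (chr15:88819515-88819543, + strand): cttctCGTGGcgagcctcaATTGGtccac
*Ero1lb* (chr13:12565677-12565705, + strand): ggcctCGTGGtcccgcctcATTGGccgcc
*Dnajb11*, ERSE-II (chr16:22857847-22857867, + strand): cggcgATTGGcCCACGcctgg
Where the capitals read CGTGG and ATTGG at that distance, the element lies on the opposite strand of the gene, as in *Calr*, *Creld2*, *Ero1lb* and the downstream copy of *Hsp90b1*. The elements began at positions -212 to -65 from the transcription start, which is counted as 0, and that of *Dnajb11* at position 7. Counted on the gene's own strand alone, 5 members held the element. The elements of *Hspa5* and *Dnajb11* fall within annotated UTR sequence of their own genes and the others outside annotated exons. A match is a description of the letters in this window and not evidence that a factor was bound.

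Of the 36 ER folding genes, 32 had a negative fold change in Ad*Lmo3* against AdLacZ libraries, and the most abundant chaperones had some of the lowest. Calreticulin (*Calr*), BiP (*Hspa5*) and GRP94 (*Hsp90b1*), the members with the highest level per length, stood at 0.439, 0.447 and 0.468 of their AdLacZ mean, and the BiP co-factor *Sdf2l1* at 0.333. Here a gene is called when its Benjamini-Hochberg adjusted p-value, taken over all 12766 tested genes, is under 0.05 in edgeR's quasi-likelihood test, and fold changes are on the log2 scale with a negative sign for lower values in Ad*Lmo3* libraries. Of the 36 members 13 were called lower, or 36.1%, where 1.57% of all tested genes were called lower. None was called higher, where 2.71% of all tested genes were, and at an unadjusted p under 0.05 the members had 22 lower and 1 higher, where all tested genes had 1218 lower and 1417 higher. DESeq2 and limma voom also called none higher. The fold changes of the 13 ran from -1.58 to -0.40 with a median of -0.77. The other 23 had a median of -0.12, with 19 negative and 4 positive. Over the 36 members the median was -0.26, against 0.00 over all tested genes. All 3 Ad*Lmo3* libraries lay below all 3 AdLacZ libraries in 23 members, or 63.9%, which held for 13.2% of all tested genes. This contrast was in view when the list was made, so nothing further is read from these shares. Without AdLacZ replicate 3, 4 members were called lower (*Sdf2l1*, *Calr*, *Hsp90b1* and *Dnajb11*) and the calls over all genes dropped from 547 to 77, while the members' median stayed at -0.25. In bulk RNA, fewer cells of a type and less RNA per cell cannot be told apart.

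**Figure D1:**
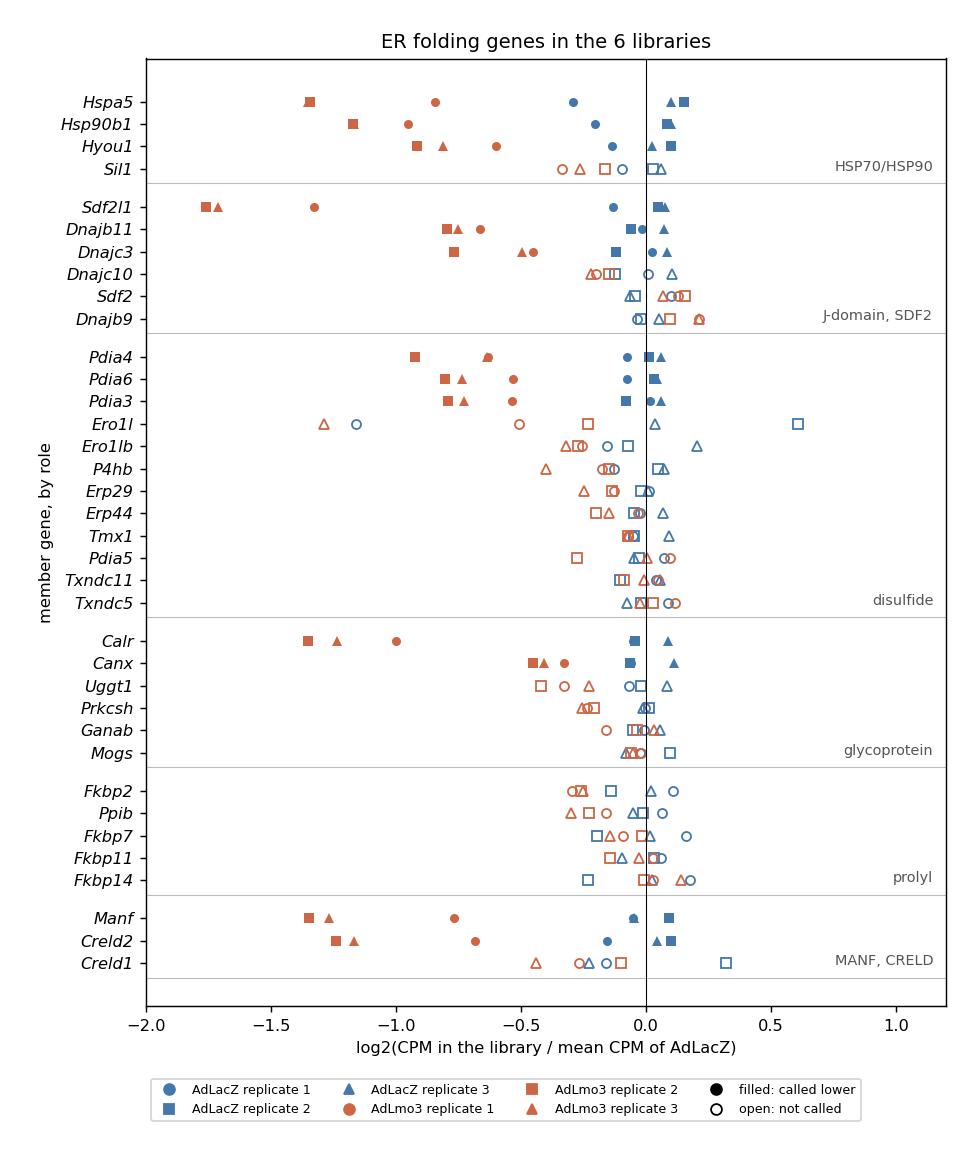
Each row is an ER folding gene, ordered by role, and each point a library, as the log2 ratio of its CPM to the mean CPM of the 3 AdLacZ libraries. Filled points mark the 13 members called lower, in which the Ad*Lmo3* libraries (orange) lie to the left of the AdLacZ libraries (blue) without overlap, and Ad*Lmo3* replicate 1 is the Ad*Lmo3* library nearest to them.

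The HSP70- and HSP90-type chaperones and their exchange factors held 4 members, of which 3 were called lower. *Hspa5* encodes BiP, the HSP70 of the ER lumen, which binds unfolded chains and also keeps the UPR sensors inactive. On chromosome 2 of GRCm38 from 34771970 to 34777547, it had 3494, 4754 and 4578 CPM in AdLacZ replicates 1, 2 and 3, and 2383, 1682 and 1672 CPM in Ad*Lmo3* replicates 1, 2 and 3. Every Ad*Lmo3* library was below every AdLacZ library, with AdLacZ replicate 1 the lowest control and Ad*Lmo3* replicate 1 the nearest to it. The fold change of *Hspa5* was -1.16 ± 0.172 (SE). It was not called without AdLacZ replicate 3 (-1.11) or without Ad*Lmo3* replicate 2 (-1.08).

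*Hsp90b1* encodes GRP94, the HSP90 of the ER, whose clients include integrins and Toll-like receptors. It lies on chromosome 10 from 86690209 to 86705509, and had 1992, 2430 and 2455 CPM in AdLacZ against 1185, 1016 and 1020 CPM in Ad*Lmo3* libraries. The fold change was -1.09 ± 0.110 (SE), with the same order of libraries at the gap as in *Hspa5*. Of its exon bases 21.6% overlap other annotated genes, 1 of them on the opposite strand, and the counting strand is not stated, so part of its reads could belong to these. *Hyou1* encodes GRP170, a large HSP70-like protein that exchanges the nucleotide of BiP. It had 330, 388 and 368 CPM in AdLacZ against 238, 192 and 206 CPM in Ad*Lmo3* libraries, a fold change of -0.77 ± 0.101 (SE). It was not called without AdLacZ replicate 3 (-0.76). *Sil1*, another exchange factor of BiP, ran from 56.5 to 62.9 CPM in AdLacZ against 47.8 to 53.8 CPM in Ad*Lmo3* libraries and was not called (-0.25). Its groups did not overlap, but the gap between them was narrow.

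The J-domain co-chaperones, which deliver clients to BiP and start its ATPase, and their SDF2 partners held 6 members, of which 3 were called lower. *Sdf2l1*, which forms a complex with DNAJB11 and BiP, had the lowest fold change of all members. It lies on chromosome 16 from 17130138 to 17132383, and had 64.2, 72.9 and 74.2 CPM in AdLacZ against 28.1, 20.8 and 21.5 CPM in Ad*Lmo3* libraries. The highest Ad*Lmo3* library was thus far below the lowest AdLacZ library, and the fold change was -1.58 ± 0.122 (SE). Its partner *Dnajb11* had 158, 153 and 168 CPM in AdLacZ against 101, 91.8 and 94.8 CPM in Ad*Lmo3* libraries. Both groups were narrow in *Dnajb11*, whose fold change of -0.74 had the smallest error among the called members, 0.068 (SE). *Dnajc3* encodes p58IPK, which assists BiP in the lumen, and had 211, 191 and 220 CPM in AdLacZ against 151, 122 and 147 CPM in Ad*Lmo3* libraries. Its fold change was -0.56 ± 0.0992 (SE), and it was not called without AdLacZ replicate 1 (-0.55), AdLacZ replicate 3 (-0.52) or Ad*Lmo3* replicate 2 (-0.47).

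The other members of this class were not called, and their values lay on either side of the controls. *Dnajc10* (ERdj5), a J-domain protein that reduces disulfide bonds, had 169 to 198 CPM in AdLacZ against 158 to 166 CPM in Ad*Lmo3* libraries (-0.19). *Sdf2*, the paralog of *Sdf2l1*, had 63.4, 57.2 and 56.5 CPM in AdLacZ against 64.5, 65.7 and 61.8 CPM in Ad*Lmo3* libraries. Its groups overlapped, with a fold change of 0.12 ± 0.066 (SE), so that the related genes *Sdf2l1* and *Sdf2* stood near opposite ends of the list. In *Sdf2*, 19.1% of the exon bases overlap another gene. *Dnajb9* (ERdj4), a co-chaperone that represses IRE1, had 101, 102 and 108 CPM in AdLacZ against 120, 111 and 120 CPM in Ad*Lmo3* libraries. It was the single member with all Ad*Lmo3* libraries above all AdLacZ libraries, and its fold change of 0.17 ± 0.0643 (SE) was not called.

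The disulfide isomerases, thioredoxin-like proteins and oxidases were the largest class, with 12 members, of which 3 were called lower. *Pdia4* (ERp72) had 647, 688 and 710 CPM in AdLacZ against 439, 359 and 438 CPM in Ad*Lmo3* libraries, a fold change of -0.73 ± 0.0948 (SE). *Pdia6* (P5), which works with BiP and limits IRE1 signalling, had 426, 459 and 463 CPM in AdLacZ against 311, 257 and 270 CPM in Ad*Lmo3* libraries, a fold change of -0.69 ± 0.0875 (SE). *Pdia3* (ERp57), which folds the glycoproteins bound by calnexin and calreticulin, had 1003, 937 and 1035 CPM in AdLacZ against 684, 573 and 599 CPM in Ad*Lmo3* libraries, a fold change of -0.68 ± 0.0884 (SE). In all 3 genes Ad*Lmo3* replicate 2 was the lowest library. None of these 3 was called without AdLacZ replicate 3, with fold changes of -0.69 for *Pdia4*, -0.66 for *Pdia6* and -0.65 for *Pdia3*.

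*P4hb*, the founding protein disulfide isomerase and the most abundant of the class, ran from 1404 to 1614 CPM in AdLacZ against 1163 to 1384 CPM in Ad*Lmo3* libraries. The groups did not overlap, but its fold change of -0.24 ± 0.0968 (SE) was not called. *Ero1l* (ERO1 alpha), the oxidase that feeds disulfide bonds to P4HB, was the most variable member and is singled out here after its values were seen. It had 659, 2248 and 1511 CPM in AdLacZ against 1037, 1255 and 603 CPM in Ad*Lmo3* libraries. The groups overlapped widely, with AdLacZ replicate 1 below 2 of the Ad*Lmo3* libraries, and the fold change of -0.61 had an error of 0.415 (SE). It was -0.96 without AdLacZ replicate 1, -0.17 without AdLacZ replicate 2 and -0.36 without Ad*Lmo3* replicate 3, and *Ero1l* was called in none of the alternatives run. *Ero1lb* (ERO1 beta), which holds the ERSE printed above, had 12.9 to 16.6 CPM in AdLacZ against 11.5 to 12.04 CPM in Ad*Lmo3* libraries and was not called (-0.28, or -0.17 without AdLacZ replicate 3). *Erp29*, *Erp44*, *Tmx1*, *Pdia5* and *Txndc11* had fold changes between -0.17 and -0.01. In *Erp29*, 33.9% of the exon bases overlap other genes. *Txndc5* (ERp46) had 288, 267 and 257 CPM in AdLacZ against 294, 277 and 266 CPM in Ad*Lmo3* libraries, which overlap, with a fold change of 0.04 ± 0.0735 (SE).

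The lectin chaperones and glycoprotein folding enzymes held 6 members, of which the 2 lectins were called lower. *Calr* encodes calreticulin, the soluble lectin, which also buffers calcium in the lumen. On chromosome 8 from 84841850 to 84846934, it had 2666, 2683 and 2937 CPM in AdLacZ against 1380, 1083 and 1173 CPM in Ad*Lmo3* libraries. The gap between the groups exceeded the range within either of them, and the fold change was -1.19 ± 0.106 (SE). *Canx* encodes calnexin, the membrane-bound lectin with the same clients, and had 1312, 1309 and 1479 CPM in AdLacZ against 1088, 999 and 1030 CPM in Ad*Lmo3* libraries. Its fold change of -0.40 ± 0.0812 (SE) was the closest to 0 among the called members. *Canx* was not called in any of the 6 fits that left out a library, in which its fold change ran from -0.43 to -0.33. *Uggt1*, which returns misfolded glycoproteins to the lectins, stood just outside the threshold, with 151 to 168 CPM in AdLacZ, 118 to 135 CPM in Ad*Lmo3* libraries and a fold change of -0.32 ± 0.0754 (SE). *Uggt1* was called lower by DESeq2, by limma voom and by edgeR with no filter on low counts. *Prkcsh* and *Ganab*, the subunits of glucosidase II, had fold changes of -0.23 and -0.05, and the glucosidase I gene *Mogs* -0.04. None of these 3 was called by edgeR, and DESeq2 called *Prkcsh* lower.

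Of the 5 prolyl isomerases none was called by edgeR, with 2 lower at an unadjusted p under 0.05, none called by limma voom, and *Ppib* alone called by DESeq2. *Ppib* (cyclophilin B), which acts in collagen folding, ran from 178 to 193 CPM in AdLacZ against 150 to 165 CPM in Ad*Lmo3* libraries (-0.23). Of its exon bases 57.6% overlap *Snx22* on the opposite strand, so its reads carry that uncertainty. *Fkbp2* had 41.7 to 49.6 CPM in AdLacZ against 37.4 to 38.6 CPM in Ad*Lmo3* libraries (-0.27), and its groups did not overlap. *Fkbp7* and *Fkbp11* had fold changes of -0.08 and -0.05. *Fkbp14* had 83.4, 62.9 and 75.1 CPM in AdLacZ against 75.2, 73.3 and 81.3 CPM in Ad*Lmo3* libraries, which overlap, with a fold change of 0.05 ± 0.103 (SE).

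Of the MANF and CRELD proteins, 2 of 3 were called lower. *Manf* encodes a small lumenal protein that binds BiP and is partly secreted, and had 170, 188 and 170 CPM in AdLacZ against 103, 68.9 and 73.0 CPM in Ad*Lmo3* libraries. Ad*Lmo3* replicate 1 lay apart from the other Ad*Lmo3* libraries of *Manf* but below each AdLacZ library, and the fold change was -1.105 ± 0.146 (SE). *Creld2*, a lumenal protein with disulfide isomerase activity that is known as a target of the UPR, had 76.3, 91.2 and 87.6 CPM in AdLacZ against 53.0, 36.01 and 37.9 CPM in Ad*Lmo3* libraries, a fold change of -1.01 ± 0.146 (SE). Neither was called without AdLacZ replicate 3 (-1.13 for *Manf* and -0.99 for *Creld2*), nor was *Creld2* without Ad*Lmo3* replicate 2 (-0.90). *Creld1*, the membrane-bound relative of *Creld2*, had 3.78 to 5.53 CPM in AdLacZ against 3.26 to 4.13 CPM in Ad*Lmo3* libraries, overlapping groups at the lowest level of all members (-0.26, and -0.07 without AdLacZ replicate 2). It rested on 88 to 216 counts per library.

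The libraries of a group differed from each other in the same way across the called members. Ad*Lmo3* replicate 1 was the highest Ad*Lmo3* library in 13 of the 13, and Ad*Lmo3* replicate 2 the lowest in 12. Among the AdLacZ libraries, replicate 1 was the lowest in 9 and replicate 3 the highest in 9. How many of all tested genes shared these orders was not counted, so they are not read as particular to the members. The median log2 deviation of the 13 from their mean over all libraries was 0.35, 0.49 and 0.44 in AdLacZ replicates 1, 2 and 3, and -0.21, -0.56 and -0.42 in Ad*Lmo3* replicates 1, 2 and 3. The 36 members together took 1.76%, 2.08% and 2.06% of the gene counts in AdLacZ and 1.25%, 1.1% and 1.03% in Ad*Lmo3* libraries. Leaving out *Hspa5*, the member with the most reads, the shares were 1.40%, 1.60% and 1.59% in AdLacZ and 1.01%, 0.936% and 0.869% in Ad*Lmo3* libraries.

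Levels were compared between genes as RPKM, the CPM divided by the exon length in kilobases. In AdLacZ libraries the members ran from *Calr* at 1265 ± 69.7 RPKM to *Creld1* at 1.92 ± 0.418 RPKM (SD, n = 3). After *Calr* followed *Hspa5* (1139 ± 182 RPKM), *Hsp90b1* (811 ± 92.1 RPKM) and *P4hb* (537 ± 40.1 RPKM). *Calr* and *Hspa5* differed by less than the SD of *Hspa5*, whereas the next steps, to *Hsp90b1* and to *P4hb*, were larger than the SDs of the genes on either side. In Ad*Lmo3* libraries *Calr* (555 ± 69.7 RPKM) and *Hspa5* (509 ± 108.5 RPKM) still led, but *P4hb* (455 ± 42.3 RPKM) came before *Hsp90b1* (380 ± 34.2 RPKM). The order of *P4hb* and *Hsp90b1* was thus turned, with *P4hb* within the SD of *Hspa5*. *Pdia3*, *Ero1l* and *Canx* followed in AdLacZ libraries at 358 ± 18.0, 333 ± 180 and 319 ± 22.7 RPKM, an order that the spread of *Ero1l* leaves unsettled. At the low end *Ero1lb* had 2.215 ± 0.298 RPKM, within the SD of *Creld1*, while its paralog *Ero1l* was the sixth most abundant member.

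**Figure D2:**
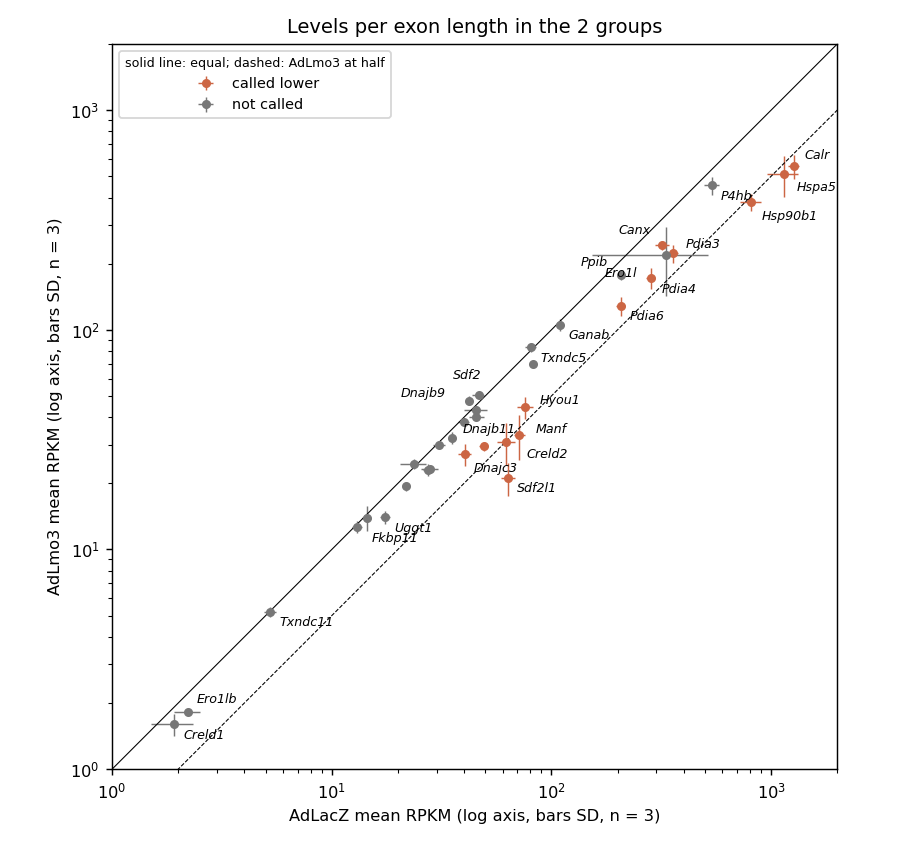
Each point is an ER folding gene, at its mean RPKM in AdLacZ libraries (horizontal log axis) and in Ad*Lmo3* libraries (vertical log axis), with bars for the SD (n = 3 each) and a selection of genes named. *Calr*, *Hspa5*, *Hsp90b1*, *Manf*, *Creld2* and *Sdf2l1* lie near or below the dashed line, where the Ad*Lmo3* mean is 0.5 of the AdLacZ mean, and the bars of *Ero1l* are the widest.

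The rule for the list named no promoter feature, but the ERSE is known from promoters of many ER chaperone genes. The fold changes were in view when the list was made, so the occurrence of the ERSE is set beside them as a description only. Of the 11 called members with a promoter in the table, 7 held it, and of the 21 that were not called 1 did, *Ero1lb*. The median fold change was -0.85 for the 8 members with the element and -0.16 for the 24 without. *Sdf2l1*, *Pdia4* and *Pdia3*, which were called, held neither ERSE nor ERSE-II letters in this window, so the member with the lowest fold change was not among the genes with the element. CCAAT alone occurred in 23 of the 32 promoters (71.9%, against 41.1% of all genes), in 11 of 11 called members and 12 of 21 others. CCACG alone occurred in 24 (75.0%, against 35.5% of all genes). Both of these are contained in the ERSE. The core of the UPR element, TGACGTGG, was found in *Txndc5* and *Txndc11* (6.25%, against 0.714% of all genes), neither of which was called. The amino acid response element (CARE, TGATG and AA with any base between them and any base after) was found in *Txndc5* alone (3.12%, against 4.5% of all genes). All motifs were searched on both strands. The shares of all genes are over 27025 genes with a promoter, tested here or not, and none was taken over tested genes alone. Among genes that are not members, 29 held an ERSE and 11 of these were tested. Their median fold change was -0.15, with a range from -0.76 to 0.14, and 1 was called lower, the ubiquitin ligase gene *Syvn1* (-0.36), which acts in ER-associated degradation. *Manf*, *Hyou1*, *Sil1* and *Erp29* had no entry in the promoter table used here.

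**Figure D3:**
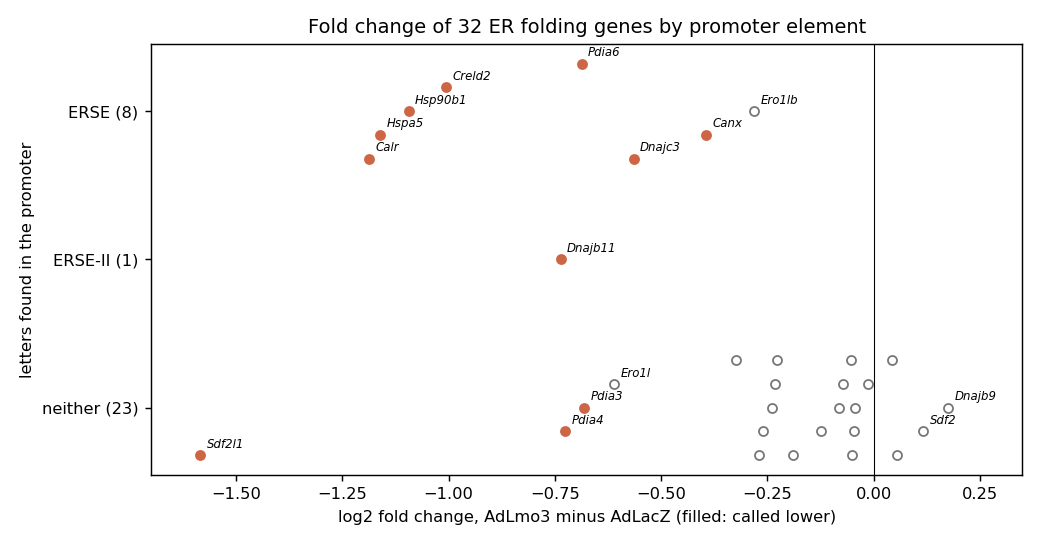
Each point is 1 of the 32 ER folding genes with a promoter in the table, at its log2 fold change (Ad*Lmo3* minus AdLacZ), in rows for the element found within the promoter; filled points were called lower. The 8 genes with an ERSE lie between -1.19 and -0.28, and the 23 with neither element lie between -1.58 (*Sdf2l1*) and 0.17 (*Dnajb9*).

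Other genes of the same pathway were read from lists of the UPR and of the steps before and after folding. Among all 12766 tested genes, 6327 had a negative fold change and 1.57% were called lower. Of 17 tested UPR sensors and transcription factors, all 17 had a negative fold change (median -0.18) and 2 were called lower. These were *Trib3*, a pseudokinase gene induced by CHOP, at 320 ± 22.9 CPM in AdLacZ against 170 ± 30.7 CPM in Ad*Lmo3* libraries (-0.91 ± 0.130, SE), and *Ddit3*, which encodes CHOP, at 263 ± 35.6 and 147 ± 37.9 CPM (-0.84 ± 0.187, SE; SD of CPM, n = 3 each). The mRNAs of the sensors *Ern1* (IRE1, -0.15), *Eif2ak3* (PERK, -0.19) and *Atf6* (-0.18) and of the factors *Xbp1* (-0.11) and *Atf4* (-0.34) were not called. These are total mRNA levels per gene symbol, and the splicing of *Xbp1* and the cleavage of ATF6, by which both factors are activated, are not measured by them.

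Among all tested genes, 1.57% were called lower and 2.71% higher. Of 45 tested genes of ER translocation, N-glycosylation and ER-associated degradation (ERAD), 10 were called lower and none higher, with a median of -0.17. None was called higher by DESeq2 or limma voom either. At an unadjusted p under 0.05, 23 were lower and 1 was higher, and 42 of the 45 had a negative fold change. All 3 Ad*Lmo3* libraries lay below all 3 AdLacZ libraries in 29 of the 45, which held for 13.2% of all tested genes. *Herpud1*, an ERAD scaffold, was at 146 ± 12.01 CPM in AdLacZ against 88.8 ± 10.3 CPM in Ad*Lmo3* libraries (-0.72). *Edem1*, which routes misfolded glycoproteins to degradation, was at 514 ± 30.7 and 345 ± 21.2 CPM (-0.58), and *Rpn1*, a subunit of the oligosaccharyltransferase, at 297 ± 19.4 and 213 ± 15.1 CPM (-0.48; SD, n = 3 each). Of 36 other ER folding factors, among them further thioredoxin-like proteins and the collagen chaperone and hydroxylases, none was called lower by edgeR, with 5 lower at an unadjusted p under 0.05, 3 called lower by DESeq2 and none by limma voom. Their median was -0.00, and 1 was called higher, *Lrpap1*, which chaperones receptors of the LDL family (0.52 ± 0.0895, SE). No test between the lists was made.

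Chaperones of other compartments were set beside these. Of 27 tested cytosolic chaperone genes 1 was called lower, the HSP70-HSP90 adaptor *Stip1* (-0.36 ± 0.0621, SE), beside 1.57% of all tested genes. The median was -0.12, and 23 of the 27 had a negative fold change. At an unadjusted p under 0.05, 9 were lower and 1 higher, where all 12766 tested genes had 1218 lower and 1417 higher. In 11 of the 27 every Ad*Lmo3* library lay below every AdLacZ library, which held for 13.2% of all tested genes. Of 13 mitochondrial chaperone and protease genes 3 were called lower, *Lonp1* (-0.74 ± 0.115, SE), *Hspa9* (-0.54 ± 0.0995, SE) and *Hspe1* (-0.25 ± 0.0526, SE), and the median was -0.05. The counts of called genes in the lists changed when single libraries were left out. In the same fits the calls over all genes dropped from 547 to between 77 and 501. Without AdLacZ replicate 3 there were 0 called lower in the UPR, translocation and ERAD, cytosolic and mitochondrial lists. Without Ad*Lmo3* replicate 2 the translocation and ERAD list and the cytosolic list had 0, and the UPR and mitochondrial lists 1 each. Without AdLacZ replicate 2 the counts were 1 in the UPR, 4 in the translocation and ERAD, 0 in the cytosolic and 0 in the mitochondrial list. Without AdLacZ replicate 1 they were 1 in the UPR and 5 in the translocation and ERAD list, and without Ad*Lmo3* replicate 3 they were 3 in the translocation and ERAD and 1 in the mitochondrial list. In the list of other ER folding factors the count called higher was 2 without AdLacZ replicate 1, and 0 without AdLacZ replicate 2, AdLacZ replicate 3 or Ad*Lmo3* replicate 2.

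**Figure D4:**
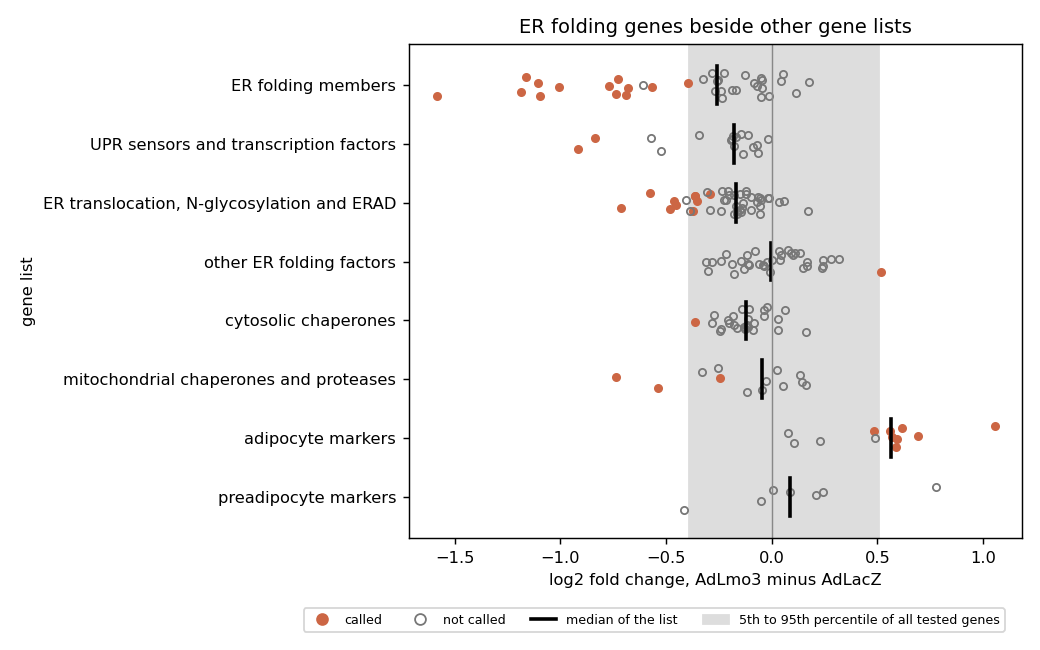
Each point is a tested gene at its log2 fold change (Ad*Lmo3* minus AdLacZ), in rows by gene list; filled points were called, bars mark the median of a list, and the grey band runs from the 5th to the 95th percentile of all tested genes (-0.39 to 0.51). The ER folding members reach furthest to the left with a median of -0.26, but they were chosen with these fold changes in view. The other ER folding factors have a median of -0.00, and the adipocyte markers lie to the right of 0 with a median of 0.56.

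Markers of the cell type moved with the groups. Of 12 adipocyte markers 8 were called higher in Ad*Lmo3* libraries, where 2.71% of all tested genes were. Among the 8 were *Adipoq* (adiponectin, 1.05), the lipid droplet gene *Cidec* (0.69) and the fatty acid binding protein gene *Fabp4* (0.62). The summed level of the 12 ran from 21389 to 24762 CPM in AdLacZ against 28605 to 34377 CPM in Ad*Lmo3* libraries, so the 3T3-L1 cells of both groups carried the defining genes of adipocytes. That count was 5 without AdLacZ replicate 1, 4 without AdLacZ replicate 2, 1 without AdLacZ replicate 3 and 4 without Ad*Lmo3* replicate 2. Of 8 preadipocyte markers 7 were tested and none was called by edgeR, DESeq2 or limma voom, nor passed an unadjusted p under 0.05, with sums from 1325 to 1929 CPM in AdLacZ against 1535 to 1976 CPM in Ad*Lmo3* libraries. The 10 macrophage and endothelial markers summed to 6.04 to 8.24 CPM in AdLacZ against 4.11 to 7.02 CPM in Ad*Lmo3* libraries, and their defining genes *Ptprc*, *Adgre1*, *Itgam*, *Cdh5* and *Kdr* were at or near 0. The 13 called ER folding genes were lower in the same group of libraries in which these 8 adipocyte markers were higher, and the part of the markers in that result was not tested.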

How the data were processed

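Total RNA of AdLacZ- and Ad*Lmo3*-infected 3T3-L1 adipocytes, 3 replicates for each virus, was sequenced in 75 bp single reads. According to the submitters' processing notes the authors used STAR 2.5.0b (mm10), and the notes also list bcl2fastq and DESeq2 1.6.3. The authors deposited raw counts per gene symbol, not normalized. The counting program, its strand setting and the annotation are not given in the sources used here. The last 2 rows of each table name no gene (7.15% to 8.94% and 0.476% to 0.543% of the reads) and were left out. Gene counts summed to 28035639 to 38332335 per library, where 3 counts were taken as the smallest detectable number; this covers counting error only.

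Groups and replicate numbers were taken from the labels. All 6 libraries were fitted together by edgeR 4.0.16 in R 4.3.3, after filterByExpr and TMM scaling, with the quasi-likelihood test and a Benjamini-Hochberg threshold of 0.05 over all tested genes. CPM are TMM-normalized. P-values weigh the difference between the groups against the spread between the 3 replicates of each virus, moderated across genes. With 3 against 3 an exact permutation test cannot go below a two-sided p of 0.1, so single genes were read from this fit. No 2 replicates agreed within sampling noise (chi-square per degree of freedom 22.9 to 61.6). Alternatives were other scaling and filters, DESeq2 1.42.0, limma 3.58.1 voom, the replicate block and leaving out each library.

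The members and lists were chosen with earlier results of these data known. Values in every library were given for the called members with the 12 largest changes, the 3 members with the highest level per length and those with a positive fold change, and 3 called genes at most were named per list; *Canx*, *Ero1l*, the UPR sensors and factors and *Syvn1* were named in addition after their values were seen. Exon lengths and overlaps came from the GENCODE annotation of GRCm38, promoters from RefSeq (GRCm38.p6, 32 of 36 members matched). Protein features were not analysed here.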

Additional observations from a re-analysis of the deposited data

How the results depend on the processing

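The members' count of 13 called lower was 13 or 14 under RLE scaling, other count filters and limma voom, and 16 with DESeq2, which called 1110 of all genes (438 lower, 672 higher) where edgeR called 547 (201 lower, 346 higher). No alternative called a member higher. Leaving out each library in turn gave 77 to 501 called genes, 4 to 12 members called lower and a members' median of -0.2986 to -0.2338, the low counts being those without AdLacZ replicate 3 (77 and 4) and Ad*Lmo3* replicate 2 (152 and 9). The cause was not tested. *Hsp90b1*, *Dnajb11*, *Sdf2l1* and *Calr* were called in all 12 alternatives. Of 432 fold changes of single members under the alternatives, 398 kept direction and side of the threshold, 19 lost the call, 6 gained it and 9 turned sign. The turned ones were all close to 0 and arose when a library was left out, over which *Txndc11* ranged from -0.0624 to 0.0228, *Fkbp7* from -0.17 to 0.0042, *Mogs* from -0.0823 to 0.0052, *Fkbp14* from -0.0488 to 0.1503, *Ganab* from -0.10 to 0.0038, *Pdia5* from -0.1283 to 0.0523 and *Fkbp11* from -0.0919 to 0.0024.

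In the fit with the replicate block, 498 genes were called (150 lower, 348 higher) and 13 members were called lower, 12 of them called without it too, *Uggt1* being added and *Canx* not. Deviations of same-numbered libraries correlated by 0.035, 0.176 and 0.176, and those of differently numbered libraries by -0.265 to 0.149. With 3 libraries per group these values cannot show whether the numbers mark pairs. The main fit used no pairing. The block called 1 gene of the UPR list and 6 of the translocation and ERAD list lower. Of the other lists, DESeq2 called 2 cytosolic and 5 mitochondrial chaperone genes lower. Counting error weighs most on *Creld1*, the member with the fewest reads (88 to 216 counts per library).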
